A study of Homo sapiens with 12 samples.

Results

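The SNARE and synaptotagmin genes were followed across 4 groups of cells derived from human embryonic stem cells. Members were taken by symbol from the array annotation used here: the numbered synaptotagmin (SYT), syntaxin (STX), VAMP and syntaxin-binding protein (STXBP) genes, together with SNAP23, SNAP25, SNAP29, SNAP47 and SNAP91. The rule used names only and no measured value, though it was chosen with earlier results of these data known. It found 48 genes with 73 probes, out of 20046 genes and 47322 probes on the array. Of these members 36 had at least 1 probe detected on at least 3 of the 12 arrays and entered the tests, and 22 of them were detected on all 12 arrays. The other 12, STX11, STX18, STX19, SYT2, SYT3, SYT5, SYT6, SYT8, SYT10, SYT12, SYT14 and SYT16, were not tested. In 10 of those 12 no probe was detected on any array. SYT2 was detected on 1 LSB array and SYT3 on 2 NPC-NC arrays.

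SNARE proteins drive membrane fusion. A SNARE on the vesicle (a VAMP) zips together with partners on the target membrane (a syntaxin and a member of the SNAP25 family), and syntaxin-binding proteins of the Munc18 family guide or restrain that assembly. Synaptotagmins are vesicle proteins with paired C2 domains. Some of them bind calcium and trigger fusion of synaptic vesicles or dense core granules, while others lack calcium-binding residues and act in other steps of membrane traffic. Neurons are known for a dedicated set, with SNAP25, VAMP2 and SYT1 at its centre, while close relatives serve constitutive secretion, endosomes and the Golgi in most cells.

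Illumina HT-12 bead arrays were hybridised with total RNA of H9, an established human embryonic stem cell line, in 4 groups of 3 arrays labelled as biological replicates. LSB cells were unsorted neuroepithelial cells at day 11 of differentiation. MS5-NC cells were grown over a feeder layer of the mouse stromal line MS5, and NPC-NC cells without feeders. They were collected at day 35 and day 18, and both were sorted for the HNK1 epitope and the p75 receptor. The cells called sox10-NC were induced with Wnt in a line carrying the sox10::GFP reporter and sorted for GFP at day 11, so that only this group carried a transgene. The way of induction differed between all groups, the day of collection in every comparison but that of sox10-NC with LSB, and the sort in every comparison but that of NPC-NC with MS5-NC. Where several of these differ in a comparison, their shares cannot be told apart. In these bulk samples, fewer cells of a type and less RNA per cell cannot be told apart either.

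The 3 sorted groups are labelled neural crest cells, and the arrays went against that label for MS5-NC and NPC-NC. Of 8 neural crest markers, SOX10, TFAP2B and FOXD3 were detected on no array outside sox10-NC, and the mean log2 level of the list lay between 4.65 and 5.37 on those 9 arrays. It lay between 8.52 and 9.07 in sox10-NC, where all 8 markers were detected on every array. NGFR, the gene of the p75 receptor used in the sort, was detected on 0 of 3 MS5-NC arrays and 2 of 3 NPC-NC arrays. Of 10 neuron markers, 9 were called higher in MS5-NC and 9 in NPC-NC than in LSB. The groups are therefore called by their labels' short names. Over the arrays, 30.9% to 36.1% of probes were detected, with medians of 18 to 22 beads behind a probe. The sox10-NC arrays had the lowest shares detected, at 30.9%, 32.6% and 31.2%. Their detection floors, the lowest normalised log2 levels that passed detection, were also the highest. These floors were 5.45, 5.31 and 5.43, beside 5.08 to 5.28 on the other arrays, so a level below background in sox10-NC could pass detection elsewhere. Precision is limited by the number of arrays.

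Levels are normalised log2 signals of 1 probe per gene, changes are log2 differences between group means with the SE of 1 limma fit to all 12 arrays (n = 3 arrays per group), and p-values are adjusted over all 11280 genes tested. A gene was called changed at an adjusted p under 0.05 and at least 2-fold, provided that 2 or more arrays of the higher group detected it. A group in which the probe was detected on no array is below background, and the fold against it is a lower bound. Levels of different genes come from different probes and are not compared. The 3 comparisons with LSB share the LSB arrays, and the other comparisons share arrays among themselves in the same way.

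Against LSB, the neuronal release genes were mostly higher in MS5-NC and NPC-NC. In sox10-NC, SNAP25, VAMP2 and the synaptotagmin SYT4 were higher and 4 other synaptotagmins lower. Of the 36 tested members, NPC-NC had 10 called against LSB, which is 27.8% of members beside 15.0% of all genes. Of these 6 were higher, where 10.2% of all genes were, and 4 lower, where 4.84% were. MS5-NC had 11 called against LSB, 30.6% beside 20.9% of all genes, with 8 higher (13.0% of all genes) and 3 lower (7.85% of all genes). The sox10-NC group also had 11, 30.6% beside 18.4% of all genes, with 4 higher (9.77% of all genes) and 7 lower (8.64% of all genes). The arrays did not overlap those of LSB for 23 members in NPC-NC, 28 in MS5-NC and 22 in sox10-NC, which is 63.9%, 77.8% and 61.1% of members beside 45.7%, 52.6% and 45.9% of all genes. The median signed log2 change of members, in which rises and falls cancel, was -0.02 in NPC-NC, 0.02 in MS5-NC and -0.31 in sox10-NC. The medians of all genes were 0.01, 0.00 and -0.02. Without regard to sign, the median change of members was 0.53, 0.75 and 0.45, beside 0.44, 0.52 and 0.47 for all genes. Without background correction 22 of the 49 calls were lost, all with the same sign. Against LSB these were STXBP2, SYT4, SYT17 and VAMP5 in NPC-NC, STX3, STXBP2, SYT7, SYT13 and SYT17 in MS5-NC, and SNAP25, VAMP2, STXBP3, STXBP5, STXBP6, SYT7 and SYT9 in sox10-NC. Against sox10-NC they were STXBP5 and VAMP8 in both other sorted groups, SYT17 in NPC-NC and SNAP25 in MS5-NC. Across the 6 comparisons 17 members were called at least once, a count for which the share of all genes was not computed. The map of levels by array shows all 36 tested members, called or not.

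**Figure D1:**
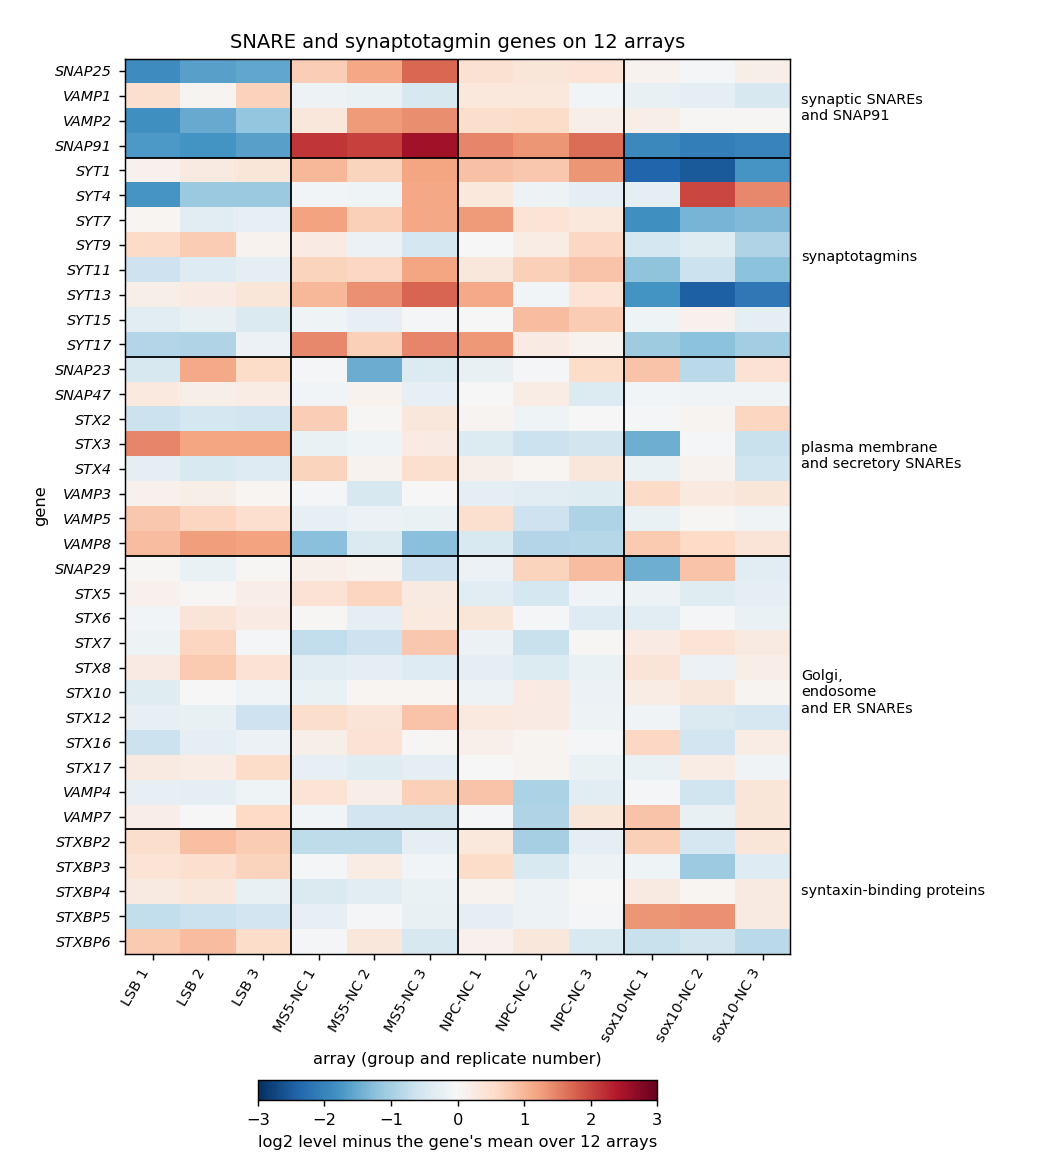
Log2 level of each of the 36 tested members on each array, minus that gene's mean over the 12 arrays (colour scale from -3 to 3), with genes grouped by role and arrays by group. The LSB arrays are low for SNAP25, VAMP2 and SNAP91, and the sox10-NC arrays are low for SYT1, SYT7 and SYT13. The Golgi, endosome and ER genes show mostly pale rows, with SNAP29 at 4.85 on sox10-NC replicate 1 an exception.

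The synaptic SNAREs and SNAP91 held 4 tested members, of which 3 were called higher in NPC-NC and MS5-NC and 2 in sox10-NC than in LSB. SNAP25 (chromosome 20, bases 10218830 to 10307418 of GRCh38.p14) encodes the SNARE of the neuronal plasma membrane that carries paired SNARE helices. Its log2 levels were 4.94, 5.21 and 5.26 in LSB, 7.30, 7.18 and 7.23 in NPC-NC, 7.57, 7.98 and 8.55 in MS5-NC, and 6.94, 6.80 and 7.02 in sox10-NC. All 9 arrays of the sorted groups stood above all LSB arrays, on only 1 of which the probe was detected. The rise over LSB was 2.90 ± 0.24 in MS5-NC (adjusted p = 1.26e-07), 2.10 ± 0.24 in NPC-NC (adjusted p = 6.31e-06) and 1.78 ± 0.24 in sox10-NC (adjusted p = 1.97e-05). MS5-NC was also higher than sox10-NC, by 1.12 ± 0.24 (adjusted p = 0.00184), a call that fell to 0.86, under 2-fold, without MS5-NC replicate 3. NPC-NC differed from sox10-NC by 0.32 (95% interval -0.19 to 0.83), which was not called.

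VAMP2, synaptobrevin, is the vesicle partner of SNAP25 at the synapse. VAMP2 levels stood at 5.65, 5.99 and 6.35 in LSB, 8.02, 8.04 and 7.69 in NPC-NC, 7.85, 8.77 and 8.89 in MS5-NC, and 7.68, 7.55 and 7.53 in sox10-NC. The LSB arrays were again the lowest and did not overlap any other group. The rise over LSB was 2.50 ± 0.27 in MS5-NC (adjusted p = 1.97e-06), 1.92 ± 0.27 in NPC-NC (adjusted p = 5.15e-05) and 1.59 ± 0.27 in sox10-NC (adjusted p = 0.000211). VAMP1, a synaptic VAMP related to VAMP2, did not follow it. VAMP1 levels were 7.20, 6.79 and 7.41 in LSB, 7.03, 7.04 and 6.62 in NPC-NC, 6.57, 6.51 and 6.24 in MS5-NC, and 6.50, 6.44 and 6.23 in sox10-NC. Its differences from LSB were -0.69 in MS5-NC (adjusted p = 0.0239), -0.74 in sox10-NC (adjusted p = 0.0186) and -0.23 in NPC-NC (adjusted p = 0.475), all under 2-fold.

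SNAP91 (chromosome 6, bases 83552885 to 83709393) encodes AP180, a clathrin assembly protein of the presynaptic terminal that shares the SNAP symbol but is no SNARE. SNAP91 levels reached 4.79, 4.71 and 4.88 in LSB, 7.97, 7.84 and 8.18 in NPC-NC, 8.65, 8.56 and 9.04 in MS5-NC, and 4.58, 4.44 and 4.50 in sox10-NC. The probe was detected on all 6 arrays of MS5-NC and NPC-NC and on none of the other 6. The gene was at least 11.6-fold higher in MS5-NC than in LSB (adjusted p = 8.48e-10) and at least 6.89-fold higher in NPC-NC (adjusted p = 1.75e-08). Against sox10-NC it was at least 10.2-fold higher in MS5-NC (adjusted p = 5.65e-11) and at least 6.07-fold higher in NPC-NC (adjusted p = 8.54e-10). No fold is given between sox10-NC and LSB, both below background. SNAP25 and VAMP2 were thus called higher than LSB in all sorted groups, and SNAP91 in 2 of them. Without background correction the sox10-NC rises came to 0.81 for SNAP25 and 0.92 for VAMP2, under 2-fold and no longer called.

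**Figure D2:**
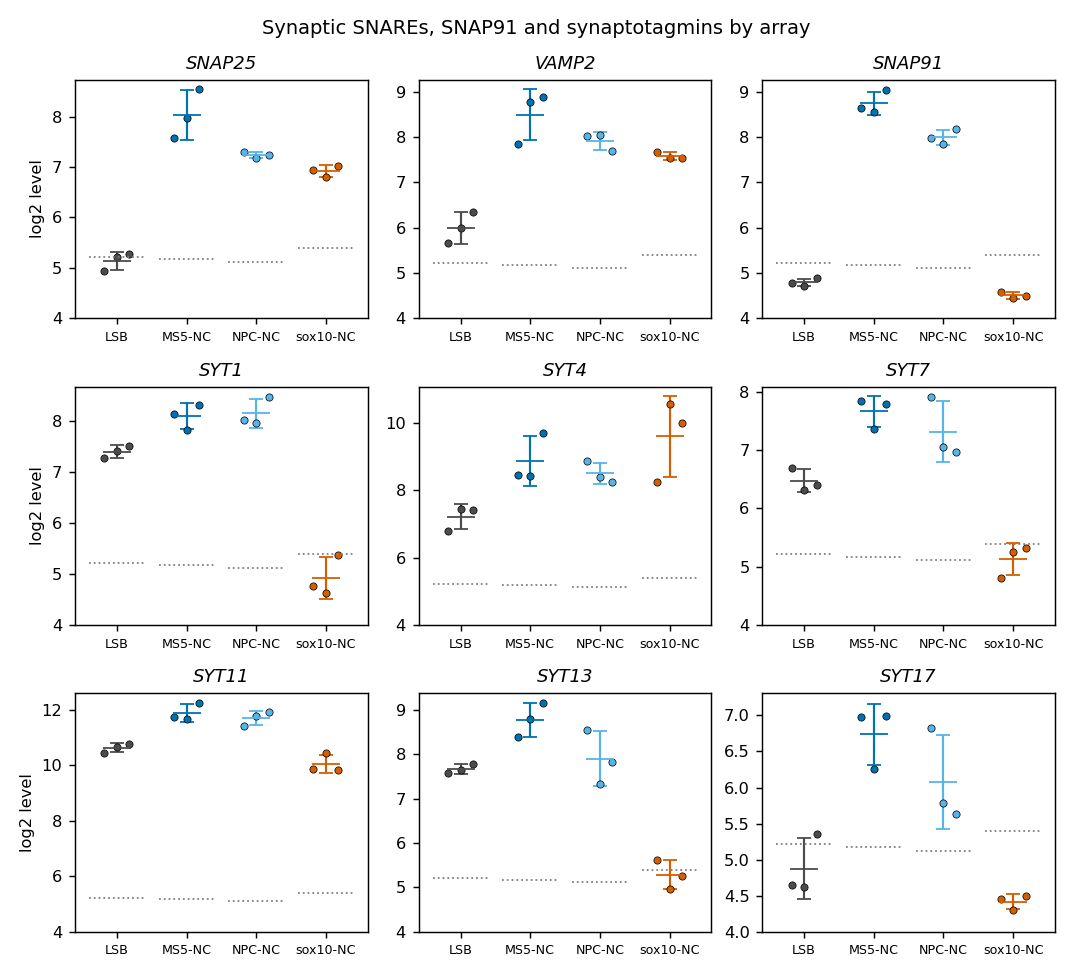
Normalised log2 level of 9 neuronal members on each array (points), with group means (short lines), SD over 3 arrays (bars) and the mean detection floor of each group's arrays (dotted lines). SNAP91 and SYT1 lie below the floor in sox10-NC, where SYT4 ranges from 8.25 to 10.54.

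Of 17 synaptotagmins 8 were tested, and the groups parted here. MS5-NC had 5 of the 8 higher than LSB and none lower, NPC-NC 3 higher and none lower, and sox10-NC 1 higher and 4 lower. The median change of the 8 was 0.87 in NPC-NC, 1.15 in MS5-NC and -0.83 in sox10-NC on the log2 scale, beside medians of all genes within 0.02 of 0. SYT1 (chromosome 12, bases 78863982 to 79452008) is the calcium sensor of fast synaptic release. Its log2 levels were 7.27, 7.42 and 7.52 in LSB, 8.03, 7.95 and 8.48 in NPC-NC, 8.14, 7.82 and 8.32 in MS5-NC, and 4.76, 4.63 and 5.38 in sox10-NC. Every array outside sox10-NC detected it, and no sox10-NC array did. In sox10-NC it was at least 4.02-fold lower than in LSB (adjusted p = 4.87e-07), and above sox10-NC it was higher by at least 6.49-fold in MS5-NC (adjusted p = 1.66e-08) and by at least 6.76-fold in NPC-NC (adjusted p = 1.59e-08). Over LSB it passed the adjusted p but stayed under 2-fold, at 0.69 ± 0.25 in MS5-NC (adjusted p = 0.0341) and 0.75 ± 0.25 in NPC-NC (adjusted p = 0.0297).

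SYT13, a synaptotagmin without the usual calcium-binding residues, and SYT7, a high-affinity sensor of slow release and lysosomal exocytosis, followed SYT1 in the sox10-NC arrays. SYT13 levels were 7.58, 7.65 and 7.79 in LSB, 8.55, 7.33 and 7.82 in NPC-NC, 8.40, 8.79 and 9.16 in MS5-NC, and 5.63, 4.97 and 5.26 in sox10-NC. SYT7 levels were 6.70, 6.32 and 6.40 in LSB, 7.91, 7.05 and 6.97 in NPC-NC, 7.84, 7.36 and 7.80 in MS5-NC, and 4.81, 5.25 and 5.31 in sox10-NC. For both genes the sox10-NC arrays were the lowest 3 of the 12, and NPC-NC replicate 1 was the highest array of its group. SYT13 was lower in sox10-NC than in LSB, with a log2 change of -2.39 ± 0.29 (adjusted p = 5.77e-06), and higher in MS5-NC than in sox10-NC by 3.50 ± 0.29 (adjusted p = 3.88e-08) and in NPC-NC by 2.62 ± 0.29 (adjusted p = 2e-06). SYT7 was at least 2.11-fold lower in sox10-NC than in LSB (adjusted p = 0.000811), and above sox10-NC it was higher by at least 4.83-fold in MS5-NC (adjusted p = 8.53e-07) and by at least 3.78-fold in NPC-NC (adjusted p = 6.15e-06).

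Over LSB, both genes were called in MS5-NC only, with changes of 1.11 ± 0.29 for SYT13 (adjusted p = 0.00598) and 1.19 ± 0.27 for SYT7 (adjusted p = 0.00194). Neither differed by a call between MS5-NC and NPC-NC. The SYT13 call was lost without MS5-NC replicate 3, at 0.92. In NPC-NC the same changes were 0.23 for SYT13 (adjusted p = 0.582) and 0.84 for SYT7 (adjusted p = 0.0248), the latter 1.01 and called without NPC-NC replicate 3.

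Neuroepithelium markers were low on the same sox10-NC arrays as SYT1, SYT7 and SYT13. Of 7 tested markers 6 were called lower than LSB in sox10-NC, with a median log2 change of -3.36, and PAX6, LHX2 and SIX3 were detected on no sox10-NC array. The mean of the list was 9.90 to 10.09 in LSB, 10.07 to 10.21 in NPC-NC, 10.03 to 10.39 in MS5-NC and 6.15 to 6.52 in sox10-NC. The part of neuroepithelial cells in the synaptotagmin differences was not tested.

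SYT4 (chromosome 18, bases 43267892 to 43277490), found on dense core vesicles and not a fast calcium sensor, went the other way in sox10-NC. On the log2 scale SYT4 stood at 6.78, 7.43 and 7.42 in LSB, 8.86, 8.39 and 8.25 in NPC-NC, 8.46, 8.42 and 9.70 in MS5-NC, and 8.25, 10.54 and 9.99 in sox10-NC. No array of a sorted group reached down to the LSB range, while the sorted groups overlapped, and the sox10-NC arrays spread widely, with an SD of 1.19. The rise over LSB was 2.39 ± 0.45 in sox10-NC (adjusted p = 0.00049), 1.65 ± 0.45 in MS5-NC (adjusted p = 0.00729) and 1.29 ± 0.45 in NPC-NC (adjusted p = 0.0373). The NPC-NC call was lost when any 1 of the 6 arrays of its comparison was left out (adjusted p = 0.0548 to 0.137), and the MS5-NC call without MS5-NC replicate 3 (adjusted p = 0.0526). Without sox10-NC replicate 1, SYT4 was called lower in NPC-NC than in sox10-NC (-1.77, adjusted p = 0.00167) and in MS5-NC (-1.40, adjusted p = 0.00736), which with all arrays were -1.09 (adjusted p = 0.0894) and -0.73 (adjusted p = 0.235). The mean level of the 10 neuron markers ran in the same order over the sox10-NC arrays, at 7.09, 8.52 and 7.83, and its part in the SYT4 spread was not tested.

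SYT11, which lacks calcium binding and is known for a role in endocytosis, was detected on all 12 arrays. Its levels were 10.45, 10.68 and 10.79 in LSB, 11.41, 11.79 and 11.91 in NPC-NC, 11.74, 11.68 and 12.24 in MS5-NC, and 9.87, 10.43 and 9.83 in sox10-NC. The order of the groups was complete, with MS5-NC and NPC-NC overlapping each other above LSB and sox10-NC below it. It rose over LSB by 1.25 ± 0.24 in MS5-NC (adjusted p = 0.000677) and 1.07 ± 0.24 in NPC-NC (adjusted p = 0.00333), and over sox10-NC by 1.84 ± 0.24 (adjusted p = 1.39e-05) and 1.66 ± 0.24 (adjusted p = 5.33e-05). The sox10-NC change from LSB, -0.59, was not called (adjusted p = 0.0691). With arrays centred on their medians in place of quantile normalisation, the rises over LSB fell under 2-fold, to 0.64 in NPC-NC and 0.80 in MS5-NC, and the NPC-NC rise was 0.97 without LSB replicate 1 or NPC-NC replicate 3.

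SYT17, a synaptotagmin relative without calcium binding, was detected on all arrays of MS5-NC and NPC-NC, on 1 of LSB and on none of sox10-NC. Its levels were 4.64, 4.61 and 5.36 in LSB, 6.82, 5.78 and 5.63 in NPC-NC, 6.98, 6.25 and 6.99 in MS5-NC, and 4.46, 4.31 and 4.49 in sox10-NC. It was higher than in LSB by 1.87 ± 0.31 in MS5-NC (adjusted p = 0.000157) and 1.21 ± 0.31 in NPC-NC (adjusted p = 0.00729), the latter 0.83 and under 2-fold without NPC-NC replicate 1. It was at least 2.54-fold higher in MS5-NC (adjusted p = 1.45e-05) and at least 1.61-fold higher in NPC-NC (adjusted p = 0.000594) than in sox10-NC. SYT9, a calcium sensor of a subset of neurons and endocrine cells, was low throughout, at 5.92, 6.11 and 5.47 in LSB, 5.34, 5.58 and 5.97 in NPC-NC, 5.59, 5.18 and 4.83 in MS5-NC, and 4.83, 5.0 and 4.45 in sox10-NC, where no array detected it. It was at least 1.35-fold lower in sox10-NC than in LSB (adjusted p = 0.00445), and the fitted change of -1.07 fell under 2-fold without LSB replicate 2 or sox10-NC replicate 3, at -0.92 each.

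SYT15 was the remaining tested synaptotagmin and was called in no comparison, its largest change being 0.90 ± 0.24 between NPC-NC and LSB (adjusted p = 0.00976). Its values are uncertain, since SYT15B on the same chromosome is a near-identical copy.

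The SNAREs of the plasma membrane and secretory vesicles outside the synapse held 8 tested members of 10, and no member of the group was called higher than LSB anywhere. Called lower were STX3, VAMP8 and VAMP5 in NPC-NC, STX3 and VAMP8 in MS5-NC, and STX3 in sox10-NC. STX3 (chromosome 11, bases 59754188 to 59805878) is a syntaxin of the apical membrane of epithelia that also serves specialised neuronal synapses. STX3 levels on the log2 scale were 8.49, 8.21 and 8.20 in LSB, 6.62, 6.38 and 6.48 in NPC-NC, 6.82, 6.90 and 7.27 in MS5-NC, and 5.57, 6.98 and 6.36 in sox10-NC. All 9 arrays of the sorted groups lay below all LSB arrays. The change from LSB was -1.81 ± 0.29 in NPC-NC (adjusted p = 0.00016), -1.30 ± 0.29 in MS5-NC (adjusted p = 0.00174) and -2.0 ± 0.29 in sox10-NC (adjusted p = 3.44e-05).

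VAMP8 (chromosome 2, bases 85577586 to 85582031), or endobrevin, acts in fusion of late endosomes and in regulated secretion of exocrine and blood cells. Its log2 levels were 8.16, 8.48 and 8.43 in LSB, 6.78, 6.36 and 6.37 in NPC-NC, 5.97, 6.80 and 5.98 in MS5-NC, and 8.02, 7.82 and 7.61 in sox10-NC. The MS5-NC and NPC-NC arrays lay below every array of the other groups. VAMP8 was lower than in LSB, with log2 changes of -2.11 ± 0.25 in MS5-NC (adjusted p = 5.7e-06) and -1.85 ± 0.25 in NPC-NC (adjusted p = 3.53e-05), and lower than in sox10-NC, with differences of -1.57 ± 0.25 (adjusted p = 0.000115) and -1.31 ± 0.25 (adjusted p = 0.000792). The sox10-NC change from LSB, -0.54, was not called (adjusted p = 0.11).

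VAMP5, a VAMP best known from muscle, lies next to VAMP8 on chromosome 2 (bases 85584431 to 85593406), with 2399 bases and no annotated gene between them. Its levels were 7.45, 7.28 and 7.13 in LSB, 7.10, 6.0 and 5.70 in NPC-NC, 6.38, 6.46 and 6.44 in MS5-NC, and 6.44, 6.66 and 6.53 in sox10-NC. Every sorted array lay below the LSB arrays, NPC-NC replicate 1 just so. The change from LSB was -1.02 ± 0.28 in NPC-NC (adjusted p = 0.0121), -0.86 in MS5-NC (adjusted p = 0.0228) and -0.75 in sox10-NC (adjusted p = 0.0497), of which only the first reached 2-fold. That call was lost without LSB replicate 1, NPC-NC replicate 2 or NPC-NC replicate 3. Unlike VAMP8, whose changes from sox10-NC were called, VAMP5 was called in no comparison with sox10-NC.

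The mean level of epithelial markers was also lower in the 3 sorted groups than in LSB. The mean of the 6 markers was 8.08 to 8.21 over the LSB arrays, 5.86 to 6.45 in MS5-NC, 6.22 to 6.37 in NPC-NC and 5.47 to 6.46 in sox10-NC, and those called lower than in LSB were 5 of 6 in NPC-NC, 5 in MS5-NC and 6 in sox10-NC. CDH1 was detected on no NPC-NC array, and CLDN6 on no array of the 3 sorted groups. In sox10-NC, VAMP8 levels were 7.61 to 8.02 beside the low epithelial markers. Of 5 pluripotency markers 3 were tested, LIN28A, L1TD1 and ZFP42, while POU5F1 and NANOG did not pass the detection filter. All 3 were called lower than LSB in MS5-NC and NPC-NC and 1 in sox10-NC. Their mean was 9.89 to 10.04 in LSB, 9.36 to 9.76 in sox10-NC, 6.65 to 6.82 in NPC-NC and 5.26 to 7.96 in MS5-NC, and ZFP42 was detected on no NPC-NC array. The parts of epithelial and pluripotent cells in the STX3, VAMP8 and VAMP5 differences were not tested.

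Of the common secretory SNAREs, STX4, a plasma membrane syntaxin, stood at 6.58, 6.42 and 6.49 in LSB, 7.06, 6.94 and 7.23 in NPC-NC, 7.56, 6.98 and 7.37 in MS5-NC, and 6.69, 7.0 and 6.29 in sox10-NC. Its largest change, 0.81 ± 0.23 between MS5-NC and LSB, passed the adjusted p (0.0112) without reaching 2-fold. VAMP3, a VAMP of recycling endosomes, was between 8.32 and 9.37 on all arrays: 8.93, 8.97 and 8.86 in LSB, 8.50, 8.46 and 8.44 in NPC-NC, 8.74, 8.32 and 8.79 in MS5-NC, and 9.37, 9.10 and 9.18 in sox10-NC. It was highest in sox10-NC without overlap, and its differences of -0.75 between NPC-NC and sox10-NC (adjusted p = 0.0141) and -0.60 between MS5-NC and sox10-NC (adjusted p = 0.0376) were under 2-fold. SNAP23, the widely expressed relative of SNAP25, varied within groups, at 5.34, 6.95 and 6.37 in LSB, 5.58, 5.74 and 6.37 in NPC-NC, 5.75, 4.32 and 5.41 in MS5-NC, and 6.68, 5.02 and 6.25 in sox10-NC. With all arrays it was called in no comparison on this probe, with a lowest adjusted p of 0.0674. MS5-NC was called lower than LSB without LSB replicate 1 (-1.50, adjusted p = 0.0188), without MS5-NC replicate 1 (-1.35, adjusted p = 0.0395) and with only these groups in the fit (-1.06, adjusted p = 0.0433). It was called lower than sox10-NC without sox10-NC replicate 2 (-1.31, adjusted p = 0.0326).

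**Figure D3:**
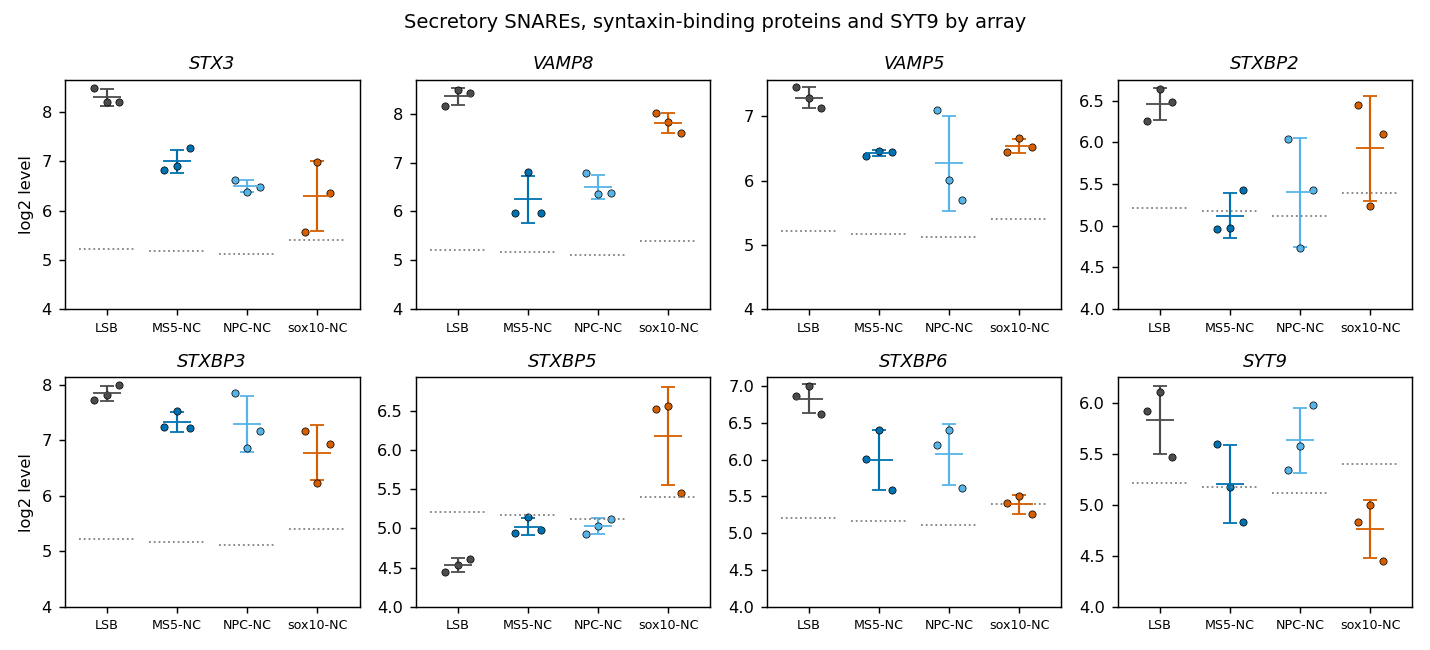
Normalised log2 level of 8 members of the secretory, syntaxin-binding and synaptotagmin groups on each array (points), with group means (short lines), SD over 3 arrays (bars) and the mean detection floor (dotted lines). STX3 is highest on the 3 LSB arrays, VAMP8 is low in MS5-NC and NPC-NC, and STXBP5 rises above the floor in sox10-NC, where its 3 arrays range from 5.45 to 6.56.

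The SNAREs of the Golgi, endosomes and endoplasmic reticulum were a group without calls. Of 12 members 11 were tested and none passed in any of the 6 comparisons, with changes between -0.83 and 0.96 on the log2 scale. A few passed the adjusted p below 2-fold, among them STX12, an early endosome syntaxin, at 0.96 ± 0.23 between MS5-NC and LSB (adjusted p = 0.00328), and STX8, a late endosome syntaxin, at -0.83 ± 0.22 in the same comparison (adjusted p = 0.00744) and -0.79 ± 0.22 between NPC-NC and LSB (adjusted p = 0.0135). STX7, the late endosome partner of STX8, was at 7.30, 8.08 and 7.38 in LSB, 7.27, 6.78 and 7.48 in NPC-NC, 6.71, 6.83 and 8.26 in MS5-NC, and 7.68, 7.85 and 7.73 in sox10-NC. The groups overlapped for STX7, and its lowest adjusted p was 0.253. No fitted change in the group reached 2-fold on these probes.

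All 5 syntaxin-binding members were tested. STXBP5, or tomosyn, which competes with VAMPs for SNARE complexes and restrains release, was the one member of this role called higher than LSB. Its levels were 4.44, 4.53 and 4.62 in LSB, 4.93, 5.03 and 5.13 in NPC-NC, 4.94, 5.14 and 4.97 in MS5-NC, and 6.52, 6.56 and 5.45 in sox10-NC. It was detected on all 3 sox10-NC arrays, on 1 MS5-NC array and on none of the other 6. In sox10-NC it was at least 1.95-fold higher than in LSB (adjusted p = 0.000105) and at least 2.08-fold higher than in NPC-NC (adjusted p = 0.00333), and MS5-NC differed from it by -1.16 ± 0.26 (adjusted p = 0.00265). Without sox10-NC replicate 1 or 2 the differences of NPC-NC and MS5-NC from sox10-NC were -0.97 or lower and just short of 2-fold. With detection required on at least 6 arrays STXBP5 was not tested, and its 3 calls were lost.

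STXBP6, or amisyn, another protein that binds SNAREs in place of a VAMP, was lower. Its levels were 6.86, 7.01 and 6.63 in LSB, 6.20, 6.40 and 5.61 in NPC-NC, 6.0, 6.41 and 5.58 in MS5-NC, and 5.41, 5.51 and 5.26 in sox10-NC. The LSB arrays were the highest 3 and the sox10-NC arrays the lowest 3. The change from LSB was -1.44 ± 0.26 in sox10-NC (adjusted p = 0.000322), -0.83 in MS5-NC (adjusted p = 0.016) and -0.76 in NPC-NC (adjusted p = 0.0336), with only the first called. A second STXBP6 probe was called lower than LSB in sox10-NC, where it was below background, by at least 2.77-fold, and in MS5-NC, with a log2 change of -1.13.

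STXBP2 and STXBP3 are Munc18 proteins, STXBP2 acting in epithelial and blood cell secretion and STXBP3 as a partner of STX4. STXBP2 levels were 6.25, 6.64 and 6.49 in LSB, 6.04, 4.73 and 5.43 in NPC-NC, 4.96, 4.97 and 5.43 in MS5-NC, and 6.45, 5.23 and 6.10 in sox10-NC. MS5-NC lay below LSB with a gap, NPC-NC replicate 1 came close to the LSB arrays, and sox10-NC overlapped them. STXBP2 was lower than in LSB, with log2 changes of -1.34 ± 0.33 in MS5-NC (adjusted p = 0.00363) and -1.06 ± 0.33 in NPC-NC (adjusted p = 0.021). The NPC-NC call was lost without LSB replicate 2, LSB replicate 3 or NPC-NC replicate 2, the last giving -0.72 (adjusted p = 0.125).

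STXBP3 levels were 7.73, 7.82 and 7.99 in LSB, 7.85, 6.87 and 7.16 in NPC-NC, 7.25, 7.54 and 7.22 in MS5-NC, and 7.17, 6.22 and 6.93 in sox10-NC. It was called in sox10-NC against LSB alone, at -1.07 ± 0.28 (adjusted p = 0.00648), and this fell under 2-fold without LSB replicate 3 (-0.99) or sox10-NC replicate 2 (-0.79). STXBP4 was called in no comparison.

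**Figure D4:**
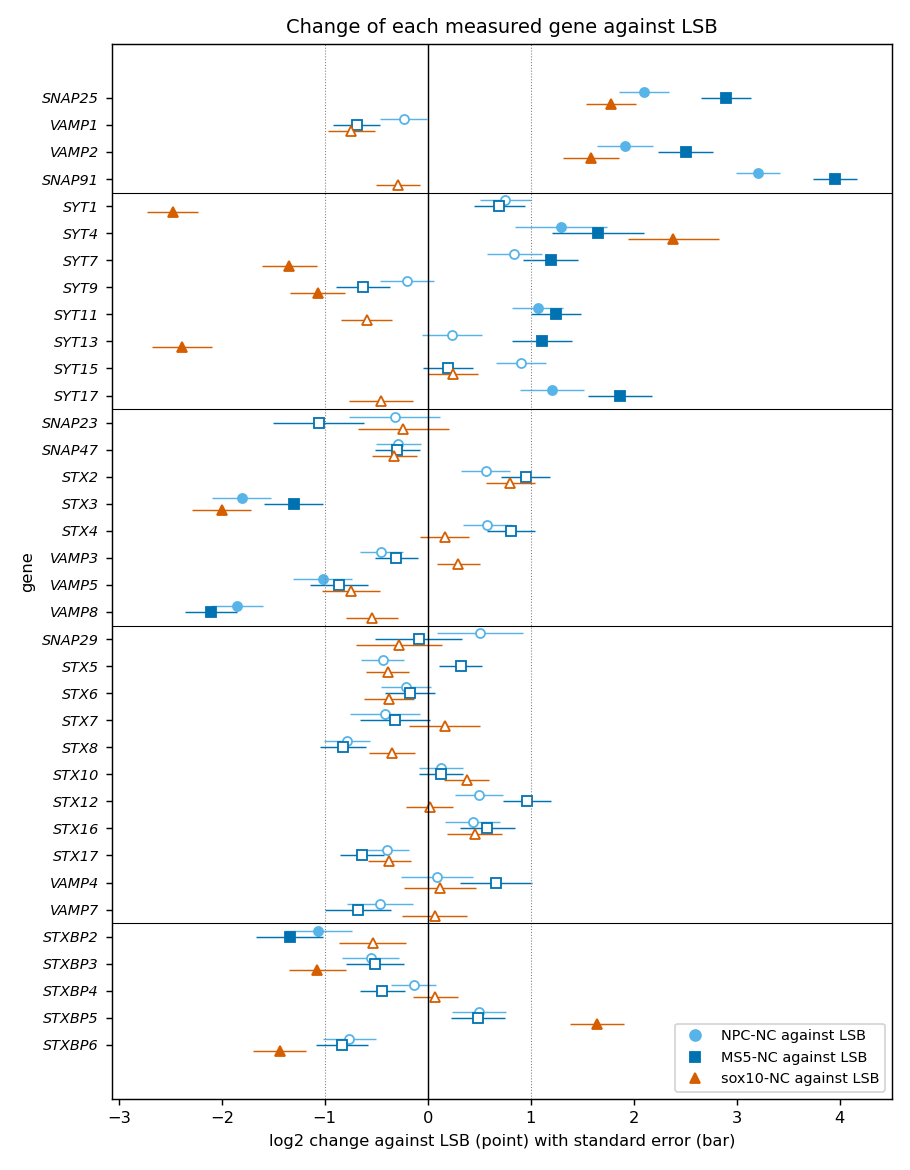
Log2 change of each of the 36 tested members against LSB in NPC-NC (circles), MS5-NC (squares) and sox10-NC (triangles), with SE as bars, filled where called and open where not; dotted lines mark 2-fold. The 3 comparisons share the LSB arrays, points against a group below background are fitted values and not the bounds in the text, and SNAP91, SYT1, SYT7 and SYT13 show sox10-NC apart from the other sorted groups.

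Between NPC-NC and MS5-NC no member was called by limma, against 0.0798% of all genes, or 9 genes, of which 4 were higher in NPC-NC (0.0355%) and 5 lower (0.0443%). At an unadjusted p under 0.05 there were 7 members and 1113 genes, and the lowest adjusted p of a member was 0.208, of STX5. SNAP25 differed by -0.80 (95% interval -1.31 to -0.29, adjusted p = 0.256) and SNAP91 by -0.75 (95% interval -1.20 to -0.31, adjusted p = 0.22), both lower in NPC-NC without overlap of the arrays. For SYT1 the interval was -0.46 to 0.58, and for SYT4 -1.30 to 0.58. The arrays of the groups did not overlap for 9 members, 25% of those tested, against 13.9% of all genes.

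Between NPC-NC and sox10-NC 8 members were called, 22.2% against 14.0% of all genes, with 6 higher in NPC-NC (9.31% of all genes) and 2 lower (4.73% of all genes). Between MS5-NC and sox10-NC 9 were called, 25% against 17.3% of all genes, with 7 higher in MS5-NC (10.8% of all genes) and 2 lower (6.57% of all genes). The arrays did not overlap those of sox10-NC for 16 members in NPC-NC and 19 in MS5-NC, 44.4% and 52.8% of members beside 34.4% and 40.2% of all genes. The higher members were SNAP91, SYT1, SYT7, SYT11, SYT13 and SYT17 in each, with SNAP25 added in MS5-NC, and the lower ones VAMP8 and STXBP5. These comparisons share the sox10-NC arrays. SYT1, SYT7, SYT17 and SNAP91 were below background in sox10-NC, so that their folds there are bounds.

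Other detected probes of the same genes mostly gave the same direction, with exceptions in which groups passed. Only 1 of 2 SYT1 probes and 1 of 4 SYT7 probes passed the detection filter, so the changes of these genes rest on 1 probe each. A second SNAP25 probe was detected on 3 MS5-NC arrays, 2 NPC-NC arrays and no LSB or sox10-NC array. It was called higher than in LSB, by at least 1.47-fold in MS5-NC and at least 1.21-fold in NPC-NC. With LSB and sox10-NC both below background it gives no fold between them, so the SNAP25 rise in sox10-NC rests on 1 probe. A second SNAP23 probe was detected on no MS5-NC array and on 3 arrays each of LSB and NPC-NC, and was called lower in MS5-NC than in LSB, by at least 2.0-fold (adjusted p = 0.00023), and than in sox10-NC, by at least 1.58-fold (adjusted p = 0.00219), where the main probe was not. A second STX5 probe was called lower in sox10-NC than in LSB (-1.04) and higher in MS5-NC than in sox10-NC (1.31). With each detected probe tested by itself, a setting chosen after seeing the data, 11 of 47 member probes were called against LSB in NPC-NC, 14 in MS5-NC and 13 in sox10-NC. These are 23.4%, 29.8% and 27.7% of member probes beside 14.3%, 19.8% and 17.8% of the 14790 probes tested.

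The genes that work beside the members were taken from lists. Beside their calls against LSB, the shares of all genes called were 15.0% in NPC-NC, 20.9% in MS5-NC and 18.4% in sox10-NC. SNAREs with letters in their symbols gave 10 tested genes, of which STX1A, the neuronal plasma membrane syntaxin and partner of SNAP25 and VAMP2, was called higher than LSB in all 3 sorted groups. STX1A levels were 5.45, 5.07 and 5.12 in LSB, 6.73, 6.44 and 6.78 in NPC-NC, 6.61, 7.48 and 7.61 in MS5-NC, and 6.25, 6.87 and 6.38 in sox10-NC, with no overlap between LSB and the rest. The rise was 2.02 ± 0.27 in MS5-NC (adjusted p = 1.83e-05), 1.44 ± 0.27 in NPC-NC (adjusted p = 0.000717) and 1.29 ± 0.27 in sox10-NC (adjusted p = 0.00131). The other calls of that list were VTI1B, a Golgi and endosome SNARE, lower in NPC-NC (-1.07), and BET1, a SNARE of ER to Golgi transport, lower in sox10-NC (-1.08). Of 13 tested SNARE regulators, NAPB was higher in MS5-NC (1.35) and SNAPIN lower in sox10-NC (-1.42), and the remaining 11 were not called against LSB.

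Of 23 tested genes of the synaptic vesicle and active zone, 9 were called higher than LSB in NPC-NC and 13 in MS5-NC, with none lower. In sox10-NC 4 were higher and 1 lower. Of all genes, 10.2%, 13.0% and 9.77% were called higher in NPC-NC, MS5-NC and sox10-NC, and 4.84%, 7.85% and 8.64% lower. The median changes of the 23 were 0.64, 1.06 and 0.17. SLC17A6, a vesicular glutamate transporter, was at least 10.7-fold higher in MS5-NC and at least 5.18-fold higher in NPC-NC than in LSB, and was below background in sox10-NC. BSN, which encodes the active zone scaffold bassoon, was at least 5.41-fold and 4.67-fold higher in the same groups and at least 1.37-fold higher in sox10-NC. SLC32A1, the vesicular transporter of GABA, rose by 2.65 in MS5-NC and 2.47 in NPC-NC. PPFIA2, encoding liprin alpha 2, was the one gene of the list called between NPC-NC and MS5-NC, at least 1.88-fold lower in NPC-NC.

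Of 10 dense core granule genes, 5 were called higher than LSB in NPC-NC and 7 in MS5-NC, and sox10-NC had 2 higher and 2 lower. CHGB and SCG2, granule matrix proteins, rose in all 3 groups, by 2.36 and 2.25 in NPC-NC, 2.60 and 3.19 in MS5-NC and 2.04 and 1.80 in sox10-NC. CPE, a peptide processing enzyme, and CADPS2, a priming factor, were lower in sox10-NC than in LSB, with a log2 change of -1.26 for CPE and a fold of at least 3.91 for CADPS2. Among 7 tested relatives of the synaptotagmins with C2 domains, none was called higher than LSB in any sorted group. SYTL1 was called lower in NPC-NC (-1.06), and SYTL1, SYTL2 and MYOF were called lower in sox10-NC, by at least 1.66-fold for SYTL1, which was below background there, and with log2 changes of -2.17 and -1.05 for SYTL2 and MYOF.

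The means of the synaptic vesicle and dense core granule lists were higher in MS5-NC and NPC-NC than in LSB, and so were the neuron markers. Their mean over 10 genes was 7.16 to 7.38 on the LSB arrays, 9.88 to 10.31 in MS5-NC, 9.43 to 9.72 in NPC-NC and 7.09 to 8.52 in sox10-NC, and MAPT was detected on no LSB array. In sox10-NC, 5 of 10 were called higher than LSB and 1, MAP2, lower (-2.08). SNAP25 and VAMP2 levels in sox10-NC varied by less than 0.25 between arrays while the neuron markers ranged from 7.09 to 8.52. Of 6 mesenchyme markers, 4 were called higher and 2, TAGLN and ACTA2, lower than LSB in both MS5-NC and NPC-NC, and 1 higher and 2 lower in sox10-NC. The mean of the 6 was 8.01 to 8.63 in MS5-NC, 7.47 to 9.18 in NPC-NC and 6.85 to 7.27 in sox10-NC, beside 6.87 to 6.95 in LSB, where DCN and LUM were detected on no array. The part of neurons or mesenchymal cells in the members' changes was not tested. No glial marker passed the detection filter.

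**Figure D5:**
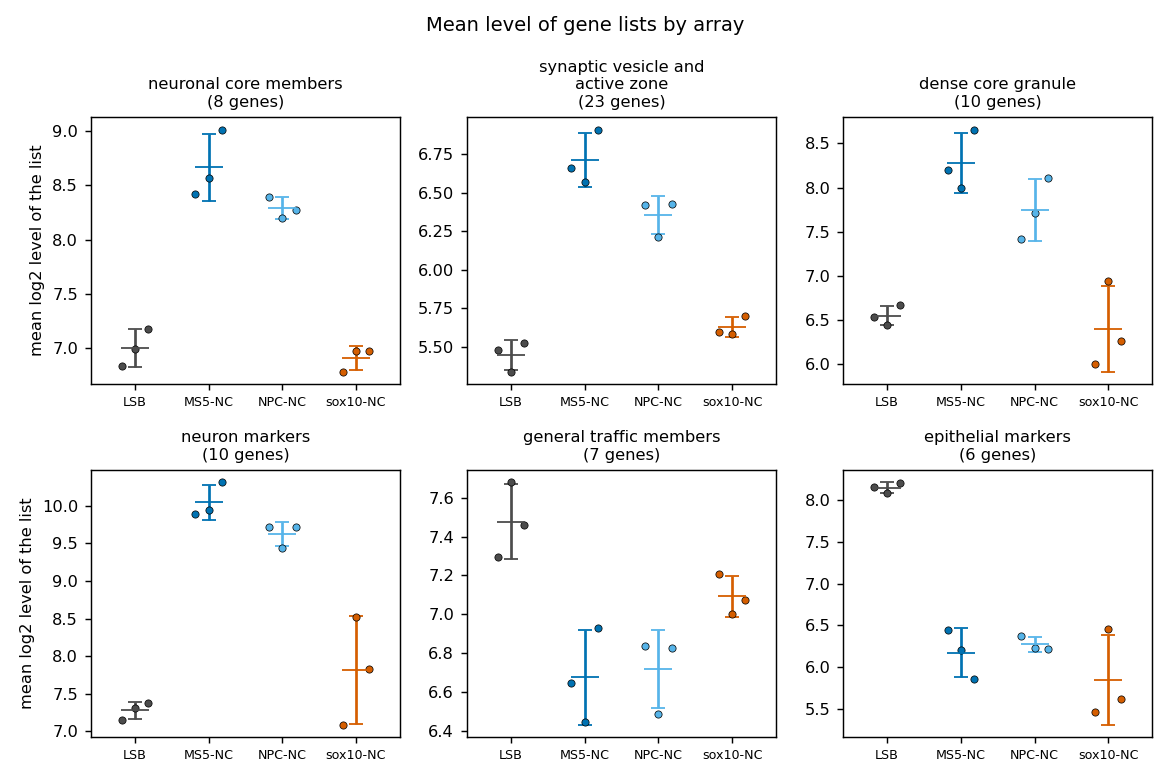
Mean log2 level over the tested genes of 6 lists on each array (points), with group means (short lines) and SD over 3 arrays (bars). The 8 neuronal core members run from 8.42 to 9.02 in MS5-NC and 8.20 to 8.40 in NPC-NC, and from 6.78 to 6.97 in sox10-NC beside 6.83 to 7.18 in LSB; the 7 general traffic members are highest in LSB.

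The upstream sequences of 3 called members are shown because VAMP2 and SYT4 rose over LSB in every sorted group while VAMP8 fell in MS5-NC and NPC-NC. Each is the 250 bases before the gene's start in RefSeq on GRCh38.p14, read 5′ to 3′ on the gene's strand, with motif matches in capitals. The VAMP2 stretch is chr17:8162949-8163198 on the minus strand, that of SYT4 chr18:43277491-43277740 on the minus strand, and that of VAMP8 chr2:85577336-85577585 on the plus strand.
VAMP2: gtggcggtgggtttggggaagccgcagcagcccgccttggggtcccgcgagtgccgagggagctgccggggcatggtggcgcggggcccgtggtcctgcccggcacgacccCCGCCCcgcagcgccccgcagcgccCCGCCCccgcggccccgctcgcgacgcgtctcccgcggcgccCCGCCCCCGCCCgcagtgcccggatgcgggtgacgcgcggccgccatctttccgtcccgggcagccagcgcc
SYT4: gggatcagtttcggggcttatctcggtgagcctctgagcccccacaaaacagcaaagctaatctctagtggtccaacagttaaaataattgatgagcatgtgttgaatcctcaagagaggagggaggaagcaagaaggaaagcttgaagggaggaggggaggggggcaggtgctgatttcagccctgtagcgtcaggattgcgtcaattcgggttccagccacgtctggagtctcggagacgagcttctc
VAMP8: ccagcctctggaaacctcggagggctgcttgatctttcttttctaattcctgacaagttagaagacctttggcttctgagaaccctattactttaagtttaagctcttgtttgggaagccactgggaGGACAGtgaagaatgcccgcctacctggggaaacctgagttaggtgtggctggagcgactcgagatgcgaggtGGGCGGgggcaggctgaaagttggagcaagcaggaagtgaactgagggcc
The capitals mark 4 GC boxes in VAMP2, on the strand opposite to the gene, and 1 GC box and the right part of the RE1 element in VAMP8. SYT4 held none of the motifs searched.

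The motifs were searched on both strands as exact letters, and a match describes the letters only. They were the GC box GGGCGG, the RE1 element's left part TTCAGCACC and right part GGACAG (RE1 is the site of REST, a repressor of neuronal genes), the CRE TGACGTCA and the E-box CAGCTG. A promoter entry at the gene's outer start was found for 34 of the 48 members, 25 of them tested. The GC box was in 18 of these 25 promoters (72%) and in 41.7% of 24885 promoters of the same length. The right part of RE1 was in 6 (24.0%) against 17.1%, the E-box in 5 (20.0%) against 13.9%, the CRE in 2 (8.0%) against 1.79%, and the left part of RE1 in none against 0.317%. These shares were not tested. The sets are also unlike, since the 25 belong to genes that passed the detection filter and the 24885 were taken whatever their detection. Of the REST complex, 5 genes were tested, while REST itself and RCOR1 did not pass the detection filter. RCOR2 was called higher than LSB in all sorted groups, by 1.49 in NPC-NC, 1.23 in MS5-NC and 1.45 in sox10-NC.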

How the data were processed

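Per the labels, biotinylated cRNA made from Trizol-extracted total RNA was put on Illumina HT-12 arrays. The submitters' processing notes list GenomeStudio, with no version. The deposited table holds mean bead intensity on a linear scale, not normalised, and per the file headers a detection p-value and a count of beads per probe and array. Its 12 bead standard error columns were left out. Processed intensity on a linear scale, from the authors' deposited series matrix, served as an alternative. No 2 arrays held identical signals.

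From there, intensity was background-corrected with the detection p-values, quantile normalised and log2-transformed by neqc (limma 3.58.1, R 4.3.3, offset 16). Probes with a detection p under 0.01 on at least 3 of 12 arrays were kept (18427). Symbols came from the array annotation (30113 probes with 1 gene, 8 with several, 17201 with none), updated through RefSeq genes of GRCh38.p14. Each of 11280 genes took the values of 1 detected probe, that of highest mean. One limma model (lmFit, eBayes, two-sided) held all 12 arrays, with Benjamini-Hochberg adjustment over all genes. The detection floor of an array is its lowest normalised level that passed detection, and a bound sets each array of a group below background at the floor or its own level, whichever is higher. The limma fit and the rule for calls were tested on simulated log2 levels. That simulation did not cover the background correction, normalisation, detection filter, choice of probe or bounds.

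The members and lists were chosen with earlier results of these data known. Every member analysed may be named, and a withheld item is not reported here. Values on every array are given for SNAP25, VAMP1, VAMP2, SYT1, SYT4, SYT11, SYT13 and SNAP91, for SNAP23, VAMP3, VAMP8, STX3, STX4, STX7 and STXBP2, and for other members called at least once. Other genes from the lists were named for being called, and STX1A array values were added after seeing them. Nothing says that replicates came from separate cultures beyond the word biological, so p-values measure the spread between these samples. Alternatives covered the background correction, offset, normalisation, detection filter, choice of probe, groups in the fit, replicate block and each array left out.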

Additional observations from a re-analysis of the deposited data

How the results depend on the processing

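Of 49 member calls over the 6 comparisons, 24 were kept under every alternative that tested them and 25 were lost under at least 1, and no called change reversed its sign. Most losses were folds compressed under 2 by settings that lift low values: 22 calls were lost without background correction and 15 with an offset of 50, against 4 with median centring and 2 with no detection filter. Requiring detection on at least 6 arrays took STXBP5 and its 3 calls out of the tests. Without background correction the member counts were 6 between NPC-NC and LSB (4 higher, 2 lower), 6 between MS5-NC and LSB (5 higher, 1 lower), 4 between sox10-NC and LSB (1 higher, 3 lower) and 5 between NPC-NC and sox10-NC (all higher). An offset of 50 gave 6 between sox10-NC and LSB (3 higher, 3 lower, beside 4 and 7). By adjusted p alone there were 20 between MS5-NC and LSB and 14 between MS5-NC and sox10-NC.

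Leaving out each array in turn gave 7 to 9 member calls between NPC-NC and LSB, 9 to 14 between MS5-NC and LSB, 10 to 11 between sox10-NC and LSB, 0 between NPC-NC and MS5-NC, 8 to 9 between NPC-NC and sox10-NC and 8 to 12 between MS5-NC and sox10-NC. The replicate numbers did not pair the samples: deviations of same-numbered arrays correlated from -0.0878 to 0.179, over 0.1 in 2 of 18 pairs. With the replicate block the member counts were 10, 11, 11, 0, 8 and 9, as without it, and no call was lost. Counts over all genes fell to 616, 966, 820, 3, 634 and 823 without background correction, and to 950, 1449 and 1260 against LSB and 947 and 1200 against sox10-NC with an offset of 50. By adjusted p alone they were 3231, 4358, 3757, 2497 and 3296. The 9 genes between NPC-NC and MS5-NC became 3 to 33 when 1 array was left out, 33 without NPC-NC replicate 1 and 23 without MS5-NC replicate 1, and 4 with no filter, with detection on 6 arrays or with only these groups in the fit. Without background correction the split between NPC-NC and LSB over all genes was 480 higher and 136 lower, beside 1150 and 546. A block for the slide was not run. Signal near background limits SYT9, SYT17 and STXBP5, which were below background in at least 1 group. SNAP91, in LSB and sox10-NC, and SYT1 and SYT7, in sox10-NC, were below background as well.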
